A study of Homo sapiens with 20 samples.

Results

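COPII coat and SAR1 genes were compared between control and POLR1D-silenced colorectal cancer cells. The 10 members, SAR1A, SAR1B, SEC23A, SEC23B, SEC24A, SEC24B, SEC24C, SEC24D, SEC13 and SEC31A, were taken by name from 36334 gene names, and each had 1 entry in each of the 20 libraries. The set was chosen by the normalized read count of SAR1B, which was higher in silenced than in control SW480 cells and not in HT29 cells. Its values in those comparisons are therefore a description and carry no test. The other 9 genes were taken because they encode the same coat.

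RNA was sequenced from HT29 and SW480, established human colorectal cancer cell lines, transfected with a control siRNA (called SCR in the labels, AllStars Negative Control in the study description) or with siPOLR1D2 or siPOLR1D3, which are 2 siRNAs that silence POLR1D. HT29 has 4 SCR libraries, 2 with siPOLR1D2 and 2 with siPOLR1D3, and SW480 has 6, 3 and 3. The deposited values are read counts per gene that the authors normalized with DESeq2, separately for each line, so levels are compared within a line. Depth was estimated at 13500000 to 27600000 reads per library, from the most frequent low value in each file; 24.9% to 55.1% of low values were whole multiples of it within 0.01, so this is a rough depth and the reads themselves were not recovered.

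COPII is the coat of the vesicles that carry newly made proteins and lipids out of the endoplasmic reticulum toward the Golgi. The small GTPase SAR1, loaded with GTP, inserts into the membrane and binds SEC23 and SEC24, the inner layer that collects cargo, and SEC13 with SEC31 then forms the outer cage that bends the membrane into a bud. Absorptive cells of the intestine use this route for large lipoprotein particles, and inherited loss of SAR1B causes chylomicron retention disease, in which these particles stay inside the cell.

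POLR1D encodes a subunit shared by RNA polymerases I and III. In HT29, its normalized read count was 6036, 4711, 4433 and 5009.6 in the SCR libraries, 3414 and 3492 with siPOLR1D2 and 2858 and 2549.6 with siPOLR1D3. In SW480, it ran from 1829 to 2599 (median 2030.3) in the 6 SCR libraries, and was 1336, 913 and 972 with siPOLR1D2 and 843, 1174 and 981 with siPOLR1D3. Every silenced library lay below every SCR library of its line. The log2 fold change, silenced minus SCR, was -0.72 in HT29 (SE 0.14, adjusted p = 0.355, limma) and -1.04 in SW480 (SE 0.13, adjusted p = 0.000991); lower in 4 of 4 and 6 of 6 silenced libraries. Without HT29 SCR 1, the highest library, the HT29 value was -0.63, and with replicate number as a block, though the numbers do not pair the libraries, it was -0.80 and was called (adjusted p = 0.0403). All adjusted p-values are over every gene tested and a gene is called at an adjusted p under 0.05; they measure only the spread between these libraries, and the comparisons within a line share its SCR libraries.

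The epithelial origin of both lines was read from markers. EPCAM, an epithelial adhesion protein, ran from 22402 to 28729.8 in HT29 and from 17162 to 35833 in SW480, and the keratin KRT18 from 71159 to 98821 and 67538 to 121181. Of 10 colorectal markers, CDX1, an intestinal transcription factor, was at or near 0 in both lines (0 to 0.876 in HT29 and 0 to 2.16 in SW480), CDX2 and CDH17 were low in HT29 (0 to 7.91 and 2.32 to 21.6), and LGALS4 and KRT20 were low in SW480 (0 to 56.4 and 1.73 to 94.6). KRT20, a keratin of mature intestinal cells, was at 1.73 to 11.2 in SCR and 20.7 to 94.6 in silenced SW480 libraries; it passed the filter on low values only through the silenced libraries, so this is a description with no test. Its part in the values below was not tested, and the libraries are bulk, so a change in every cell and a change in the share of some cells cannot be told apart.

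Some libraries stood apart from the rest of their line, in ways the labels do not name. HT29 SCR 1 lay far from the other 7 on the first principal component, which held 43.3% of the variance in HT29, and it was above all 7 of them for 8 of the 10 coat genes, where 29.1% of the 13266 genes tested were. The members farthest above were SEC24D, at 6.84 times the median of the other 7, and SEC23B, at 3.08 times; the HT29 log2 fold changes of the coat genes against SCR are given with and without this library. SW480 fell into SCR 1 to 3 with siPOLR1D2 1 and 2 on the one side of its first component (42.0% of the variance) and the other 7 libraries on the other side. SW480 SCR 1 lay between, at -14.1, against -71.4 to -52.7 in the rest of its side and 21.8 to 53.7 on the other.

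The summed level of 9 markers of leukocytes, endothelium, fibroblasts and liver differed between the sides of that SW480 split. It came to 501, 148 and 191 in SCR 1 to 3 and 168 and 271 in siPOLR1D2 1 and 2, and to 1367, 1315 and 982 in SCR 4 to 6, 1157 in siPOLR1D2 3 and 1125, 821 and 685 in the siPOLR1D3 libraries. The most abundant was COL1A1 (75.5 to 699.9), a collagen chain, followed by PDGFRB (4.91 to 566); CD3E was at 0 in 6 of 12 libraries and CDH5 in 6. The leukocyte and endothelial markers reached at most 30.8 (CD14), so they add little to the difference in the sum. In HT29 the sum was 32.5, 56.4, 93.3 and 61.9 in SCR, 59.0 and 74.0 with siPOLR1D2 and 124 and 139.8 with siPOLR1D3, with PDGFRB, CDH5 and ALB each at 0 in 6 of 8 libraries. Of the 9, 0 of 4 tested were called in SW480 and 0 of 2 in HT29 (limma), with 0 and 1 at an unadjusted p under 0.05. Their part in the results was not tested. For the coat genes that the results turn on, SW480 values are also given within the 2 subsets, which both hold SCR and silenced libraries; all 3 siPOLR1D3 libraries are in the second.

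Of the 2 SAR1 GTPases, SAR1B is the one linked to lipoprotein export and SAR1A is its close relative, found in most cells. SAR1B, on the reverse strand at chr5:134601144-134649271 (GRCh38, GENCODE 29), had normalized read counts of 646 to 825 (median 739.6) in SW480 SCR libraries, 1755, 1746 and 1799 with siPOLR1D2 and 1366, 1523 and 1498 with siPOLR1D3. All 6 silenced libraries were above all 6 controls, and every siPOLR1D2 library was above every siPOLR1D3 library. As a description with no test, the log2 fold change was 1.12 (SE 0.10), or 2.18 times; it was 1.26 with siPOLR1D2 and 0.98 with siPOLR1D3. Within SCR 1 to 3 and siPOLR1D2 1 and 2 it was 1.18, and within the other 7 libraries 1.12.

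In HT29, SAR1B was at 1630.4, 999, 1215 and 1146 in SCR, 1431 and 1352 with siPOLR1D2 and 1157 and 1235 with siPOLR1D3. The highest and the lowest HT29 values were both SCR libraries, so the groups overlapped. The log2 fold change was 0.071 (SE 0.15), 0.18 with siPOLR1D2 and -0.038 with siPOLR1D3, again with no test; without SCR 1, the highest library, it was 0.21, 0.32 and 0.10. With each of the 8 libraries left out in turn the value for silencing as a whole ran from -0.027 to 0.21, with its sign turned only without SCR 2. The SW480 value minus the HT29 value was 1.05 (SE 0.18), and 0.91 without HT29 SCR 1.

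Between the siRNAs, SAR1B was at the lower level with siPOLR1D3. In SW480, siPOLR1D3 minus siPOLR1D2 was -0.27 on the log2 scale (SE 0.12), with all 3 siPOLR1D3 libraries lower, and in HT29 it was -0.22 (SE 0.22), with both siPOLR1D3 libraries lower. The silenced libraries are among those that chose SAR1B, so these too are descriptions with no test.

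SAR1A, at chr10:70147289-70170523 on the reverse strand, ran from 1058 to 1426 in SW480 SCR libraries and from 1046 to 1623 in silenced ones, and from 1080.4 to 1422 and 1192 to 1463 in HT29. The groups overlapped in both lines. Its log2 fold change was 0.038 in SW480 (SE 0.12, adjusted p = 0.888) and -0.0042 in HT29 (SE 0.12, adjusted p = 0.992), and neither was called; without HT29 SCR 1 the HT29 value was 0.012. SAR1B made up 38.6% ± 3.28 (SD, n = 6) of the SAR1 normalized read count per coding kilobase in SW480 SCR and 57.1% ± 3.40 (n = 6) in silenced libraries, against 49.3% ± 4.24 and 50.6% ± 1.80 (n = 4 each) in HT29. The sum of both genes per coding kilobase was 3235 ± 304 in SW480 SCR and 4769 ± 569 in silenced libraries; since SAR1B chose the set, these shares and sums carry no test. The HT29 shares depend on SCR 1, at 55.6%: SCR 2 to 4 were at 46.1% to 48.0%, below all 4 silenced libraries (49.2% to 53.1%).

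**Figure D1:**
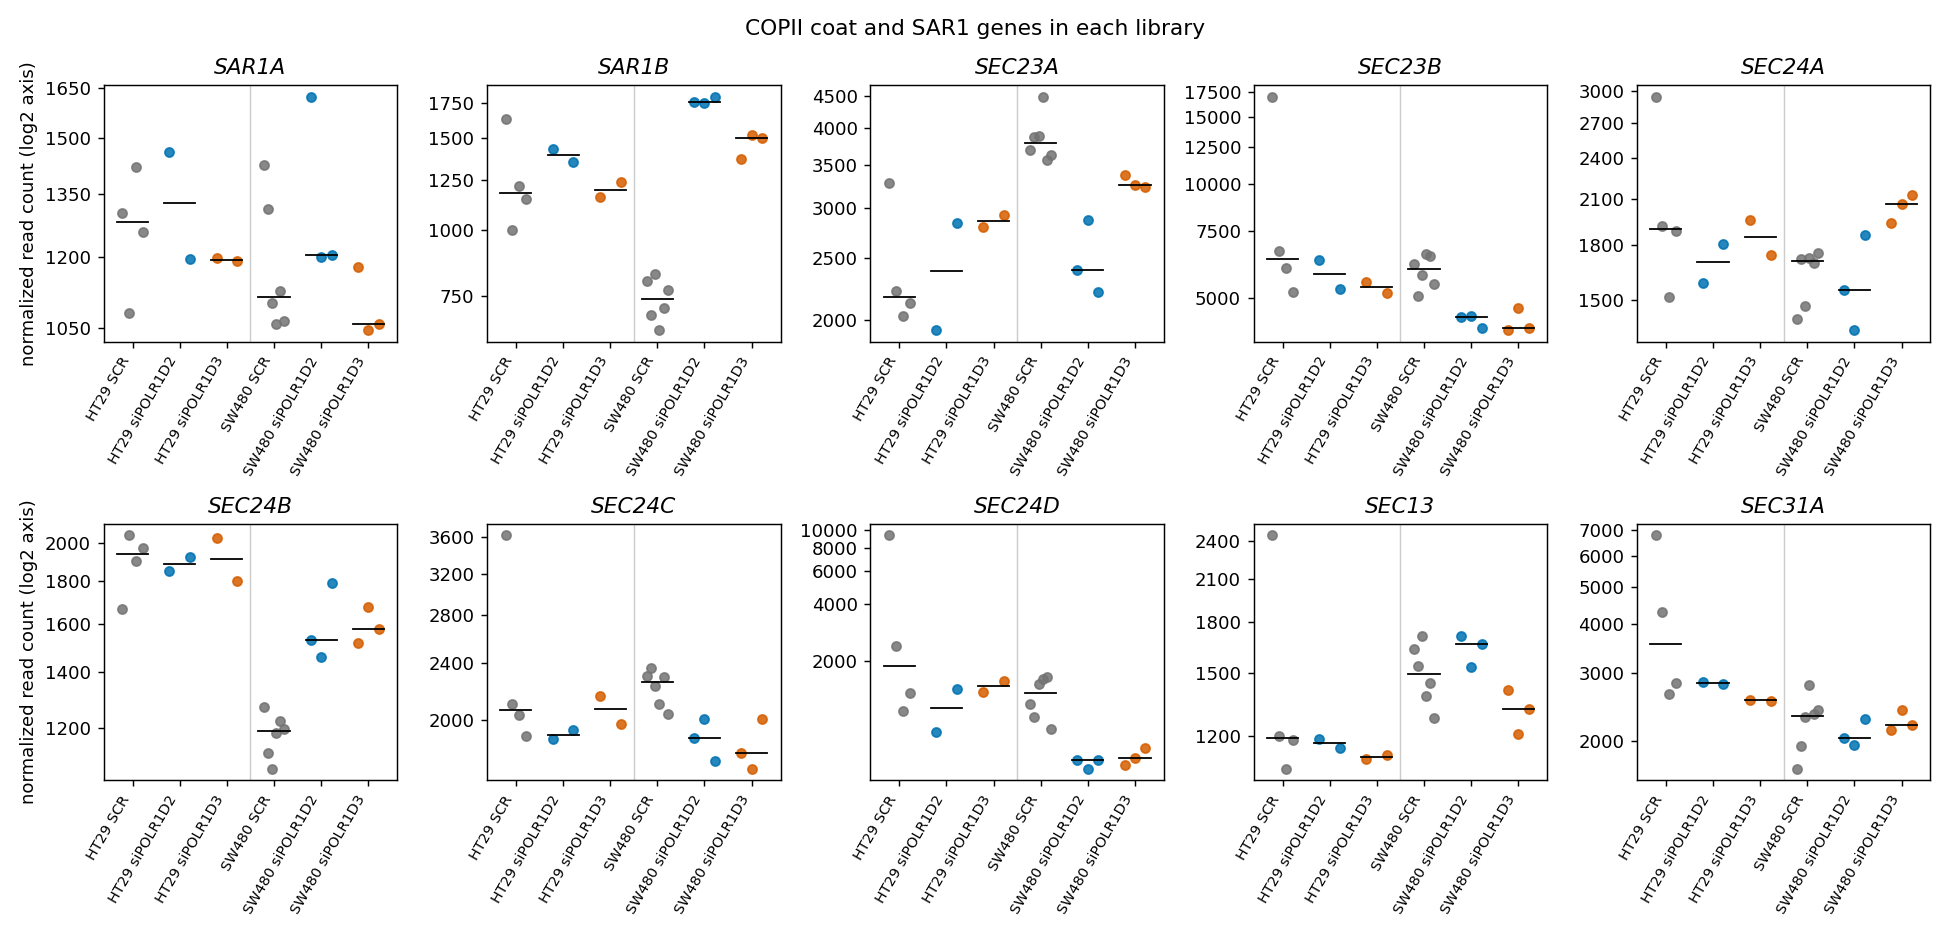
Normalized read count of each of the 10 genes in every library (points, log2 axis, a scale of its own for each gene; black line, group median), by line and siRNA. SAR1B and SEC24B in silenced SW480 libraries lie above all SW480 SCR libraries, SEC24D below them, and HT29 SCR 1 is the high point of 8 genes in HT29.

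Over the other 9 coat genes, 1 rose and 3 fell in SW480. There, 1011 of 15010 genes tested were called (6.74%), with 2.45% of those tested rising and 4.29% falling. All 9 passed the filter on low values. The same comparison chose SAR1B, so nothing is read from the count against that background. The median log2 fold change was -0.035 over the 9 and 0.013 over all genes tested. In HT29, 0 of the 9 and 0 of 13266 genes were called (0%) by limma, with 0 of the 9 and 1421 of all genes at an unadjusted p under 0.05; without SCR 1 the counts called were again 0, with 1378 of 13488 genes at an unadjusted p under 0.05. The HT29 median over the 9 was -0.23, and -0.016 without SCR 1, beside 0.000195 and -0.00338 over all genes.

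In SW480, silenced and SCR libraries did not overlap for SEC24B, with all 6 silenced libraries above, and for SEC23A, SEC23B, SEC24C and SEC24D, with all 6 below; over all genes tested 4.57% did not overlap, with 1.69% wholly above and 2.88% wholly below. In HT29 the groups overlapped for all 10 genes, where 6.88% of genes did not overlap, with 2.72% wholly above and 4.16% wholly below.

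**Figure D2:**
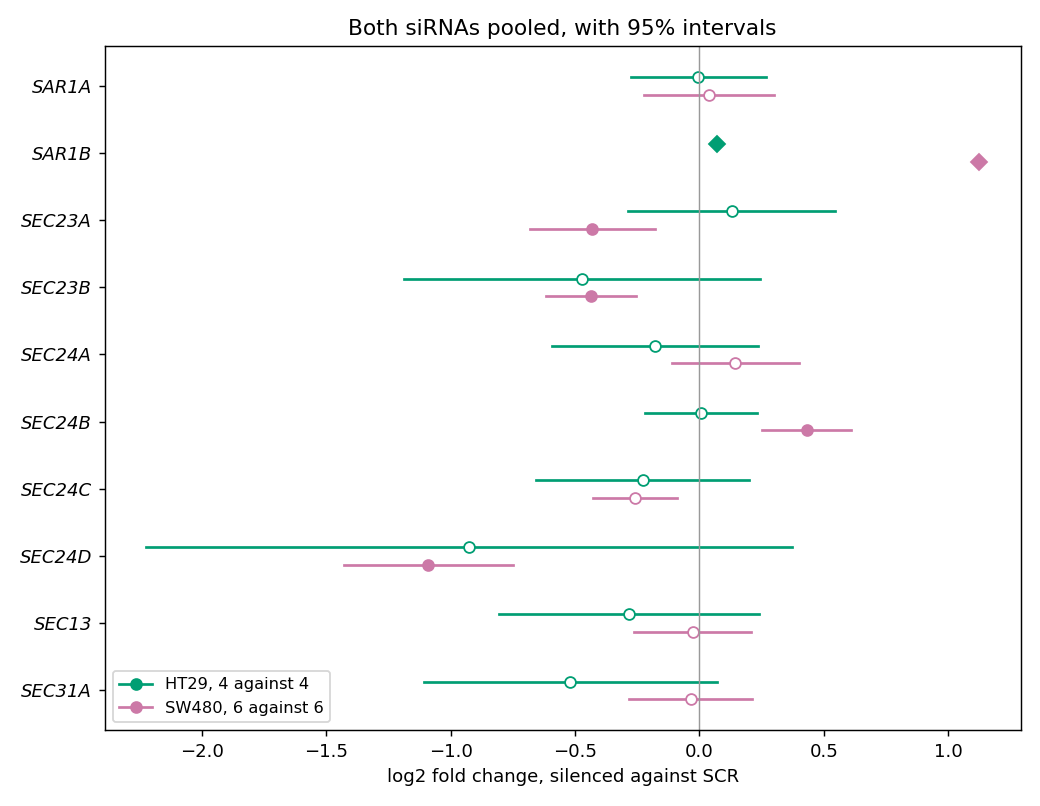
Log2 fold change, silenced minus SCR, of the 10 genes in HT29 (8 libraries) and SW480 (12 libraries), with 95% intervals for the tested genes. SAR1B is drawn with no interval since it was not tested, and filled circles mark an adjusted p under 0.05. In SW480 SEC24B is above 0 and SEC23A, SEC23B and SEC24D are below it, and in HT29 no member is called.

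SEC23 binds SAR1 and speeds up its GTP hydrolysis, and inherited loss of SEC23B causes a congenital dyserythropoietic anemia, of SEC23A a disorder of skull and lens. SEC23B, at chr20:18507482-18561415 on the forward strand, ran from 5077 to 6545 (median 5947) in SW480 SCR libraries, and was 4454, 4488 and 4179 with siPOLR1D2 and 4123, 4709.7 and 4164 with siPOLR1D3. Both siRNAs gave values below the whole SCR range. It fell by 0.44 on the log2 scale (SE 0.084, adjusted p = 0.0108), a 1.35-fold lower level; the call was kept with each of the 12 libraries left out in turn. Within SCR 1 to 3 and siPOLR1D2 1 and 2 the log2 fold change was -0.33 (adjusted p = 0.560) and within the other 7 libraries -0.52 (adjusted p = 0.00995), with a range over all alternatives of 0.00520 to 0.560. In HT29 SEC23B was at 16972, 6638, 6016 and 5178 in SCR, 6298 and 5275 with siPOLR1D2 and 5509 and 5162 with siPOLR1D3. SCR 1 stood far above the other 7, which overlapped. In HT29 the log2 fold change came to -0.47 (SE 0.32, adjusted p = 0.582), and -0.093 without SCR 1.

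In the subset of SCR 1 to 3 with siPOLR1D2 1 and 2, 0 of 15100 genes were called by limma, with 1520 at an unadjusted p under 0.05. A missing call there therefore holds for every gene and not for the coat alone.

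SEC23A, at chr14:39031919-39109646 on the reverse strand, ran from 3572 to 4487 (median 3793) in SW480 SCR libraries, and was 2397, 2875 and 2219 with siPOLR1D2 and 3383, 3256 and 3238 with siPOLR1D3. All 6 silenced libraries were below the SCR range, the siPOLR1D2 libraries farther than the siPOLR1D3 ones. It fell by 0.43 on the log2 scale (SE 0.12, adjusted p = 0.0418). That call rests on single libraries: it was lost without SCR 2, 3, 4, 5 and 6, siPOLR1D2 1, 2 and 3 and siPOLR1D3 2 and 3, each left out alone, with adjusted p from 0.0509 to 0.0883, and was kept without SCR 1 or siPOLR1D3 1. It was also lost with no filter on low values (adjusted p = 0.0707), with upper quartile rescaling (0.0654) and within either subset (-0.54, adjusted p = 0.354, and -0.38, adjusted p = 0.141); over the alternatives the adjusted p ran from 0.0204 to 0.354.

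HT29 values of SEC23A were 3281, 2219, 2034 and 2126 in SCR, 1932 and 2845 with siPOLR1D2 and 2802 and 2922 with siPOLR1D3. SCR 1 was the highest and siPOLR1D2 1 the lowest of the 8, and the other silenced libraries lay above SCR 2 to 4. On the log2 scale the silenced libraries differed by 0.13 (SE 0.19, adjusted p = 0.793), and 0.29 without SCR 1. The SW480 minus HT29 difference in response was -0.56 (SE 0.22, adjusted p = 0.453), and -0.72 without HT29 SCR 1, so a difference between the lines did not pass the threshold.

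The ratio of SEC23A to SEC23B within a library does not depend on its scaling. It was 0.658 ± 0.0729 (SD, n = 6) in SW480 SCR and 0.667 ± 0.120 (n = 6) in silenced libraries. The log2 difference was 0.0056 (exact permutation test, 2-sided, p = 0.972). That value pools the siRNAs, which lay on opposite sides of the SCR mean. The ratio was 0.531 to 0.641 with siPOLR1D2 and 0.691 to 0.821 with siPOLR1D3, against 0.554 to 0.765 in SCR. The siRNAs were not tested apart for this ratio. In HT29 the log2 difference was 0.60 (exact p = 0.114, where 4 against 4 can reach 0.0286), and 0.38 without SCR 1. The SEC23 sum per coding kilobase was 4249 ± 325 in SW480 SCR and 3153 ± 239 in silenced libraries (SD, n = 6 each).

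SEC24 is the cargo-binding partner of SEC23. Vertebrates have a pair of closely related forms, SEC24A and SEC24B, and another pair, SEC24C and SEC24D, and the forms differ in the sorting signals that they bind.

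SEC24B, at chr4:109433772-109540896 on the forward strand, is needed for the export of the planar polarity protein VANGL2. Its normalized read count was 1074 to 1273 (median 1191) in SW480 SCR libraries, 1529, 1461 and 1789 with siPOLR1D2 and 1517, 1675 and 1578 with siPOLR1D3. Every silenced library was above every SCR library, and the values with the 2 siRNAs overlapped. It rose by 0.43 on the log2 scale (SE 0.083, adjusted p = 0.0106), or 1.35 times, and the call was kept with each of the 12 libraries left out in turn. The log2 fold change was 0.37 (adjusted p = 0.530) within SCR 1 to 3 and siPOLR1D2 1 and 2, and 0.44 (adjusted p = 0.0177) within the other 7, with a range over the alternatives of 0.00532 to 0.530.

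In HT29, SEC24B was at 1667, 2042, 1904 and 1974 in SCR, 1852 and 1925 with siPOLR1D2 and 2026 and 1802 with siPOLR1D3. The silenced libraries lay inside the SCR range, and SCR 1 was the lowest of the 8. The log2 fold change was 0.0062 (95% interval -0.22 to 0.23, adjusted p = 0.985), and -0.054 without SCR 1. The difference in response between the lines was 0.42 (SE 0.12, unadjusted p = 0.00243 from limma) and was not called (adjusted p = 0.272); without HT29 SCR 1 it was 0.49. Across the lines, limma called 5 of 12716 genes (0.0393%, with 0.0236% higher and 0.0157% lower in SW480) and 0 of the 9 coat genes, with 1092 and 2 at an unadjusted p under 0.05; the 2 were SEC24B and SEC23A.

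SEC24D, at chr4:118722823-118838683 on the reverse strand, is known for the export of procollagen, and its loss causes a skeletal disorder. It ran from 858 to 1631 (median 1337) in SW480 SCR libraries, and was 592, 530.3 and 588 with siPOLR1D2 and 554, 608 and 681 with siPOLR1D3. The SCR libraries were spread widely, and the silenced ones lay close together below all of them. It fell by 1.09 on the log2 scale (SE 0.16, adjusted p = 0.00275), a 2.13-fold lower level, called with each of the 12 libraries left out in turn. Within the subsets it was -1.11 (adjusted p = 0.253) and -1.11 (adjusted p = 0.00850), and over the alternatives the adjusted p ran from 0.00112 to 0.253.

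HT29 values of SEC24D were 9321, 2404, 1070.01 and 1337 in SCR, 834 and 1403 with siPOLR1D2 and 1363 and 1547 with siPOLR1D3. SCR 1 was the highest by far and SCR 2 the next, while SCR 3 and 4 lay among the silenced libraries. With all 8 libraries the log2 fold change came to -0.92 (SE 0.58, adjusted p = 0.558), and -0.27 without SCR 1.

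SEC24C, at chr10:73744384-73772161 on the forward strand, is the near relative of SEC24D. It ran from 2035 to 2365 (median 2261) in SW480 SCR libraries, and was 1887, 2004 and 1753 with siPOLR1D2 and 1797, 1709.8 and 2003 with siPOLR1D3. The 6 silenced libraries were below the SCR range by a small margin. On the log2 scale it changed by -0.26 (SE 0.079, adjusted p = 0.0648) and was not called; with the library subset as a covariate it was -0.24 and passed (adjusted p = 0.0465), in a range over the alternatives of 0.0465 to 0.645. In HT29 its range was 1896 to 3618 in SCR and 1878 to 2161 in silenced libraries, with a log2 fold change of -0.23 (adjusted p = 0.651), and -0.016 without SCR 1.

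Within the pair, the ratio of SEC24C to SEC24D was 1.32 to 2.37 in the 6 SW480 SCR libraries and 2.81 to 3.78 in the 6 silenced ones. The ranges did not overlap, so the mix of these forms shifted toward SEC24C in all 6 silenced libraries. The mean log2 ratio was 0.82 ± 0.38 in SCR and 1.65 ± 0.15 in silenced libraries (SD, n = 6 each), a difference of 0.83 (exact permutation test, 2-sided, p = 0.00216, the smallest that 6 against 6 can give; adjusted p = 0.0130 over the 6 ratio tests). In HT29 the difference was 0.70 (exact p = 0.257), and 0.25 without SCR 1; the difference between the lines in this ratio was not tested.

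SEC24A, at chr5:134648789-134727823 on the forward strand, is the near relative of SEC24B. It ran from 1412 to 1755 (median 1709.5) in SW480 SCR libraries, and was 1551, 1360.3 and 1864 with siPOLR1D2 and 1936, 2065 and 2127 with siPOLR1D3. All siPOLR1D3 libraries and siPOLR1D2 3 were above the SCR range, and siPOLR1D2 2 was below it. Over all 12 libraries the log2 fold change came to 0.14 (SE 0.12, adjusted p = 0.507) and was not called; it was -0.074 within SCR 1 to 3 and siPOLR1D2 1 and 2, and 0.21 within the other 7. In HT29 its range was 1518 to 2942 in SCR and 1591 to 1959 in silenced libraries (log2 fold change -0.18, adjusted p = 0.712, and 0.0057 without SCR 1). The log2 ratio of SEC24A to SEC24B differed by -0.29 in SW480 (exact permutation p = 0.0346, adjusted p = 0.104 over the 6 ratio tests) and by -0.19 in HT29 (exact test, adjusted p = 0.972); without HT29 SCR 1 the HT29 value was 0.060, and neither line passed after adjustment with all libraries. In SW480 the call turned on 1 library: without SCR 1 the log2 difference was -0.35 and passed (exact permutation test, adjusted p = 0.0130). Without any other library it did not pass (adjusted p up to 0.208). By siRNA, the SW480 ratio was 0.931 to 1.04 with siPOLR1D2, below the whole SCR range of 1.11 to 1.53. With siPOLR1D3 it was 1.23 to 1.35, inside that range, and the siRNAs were not tested apart.

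As shares of the SEC24 family per coding kilobase in SW480, SEC24B and SEC24D separated the groups and the other forms did not. SEC24D went from 21.9% ± 4.50 in SCR to 11.1% ± 0.491 in silenced libraries, and SEC24B from 16.0% ± 1.35 to 23.8% ± 1.57 (SD, n = 6 each). SEC24A went from 26.3% ± 2.82 to 32.1% ± 3.61, and SEC24C from 35.8% ± 2.47 to 33.1% ± 3.47. The SEC24B ranges and the SEC24D ranges did not overlap between the groups, the SEC24A and SEC24C ranges did, and none of the shares was tested; shares add up to a fixed total, so a rise of one form lowers the others. The sum of the 4 was 1895 ± 113 and 1721 ± 111 per coding kilobase. In HT29, SEC24D held 31.2% ± 17.0 in SCR and 20.1% ± 3.79 in silenced libraries (n = 4 each), with the highest share, 55.4%, in SCR 1; SCR 2 to 4 were at 18.0% to 30.7%, overlapping the silenced libraries.

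**Figure D3:**
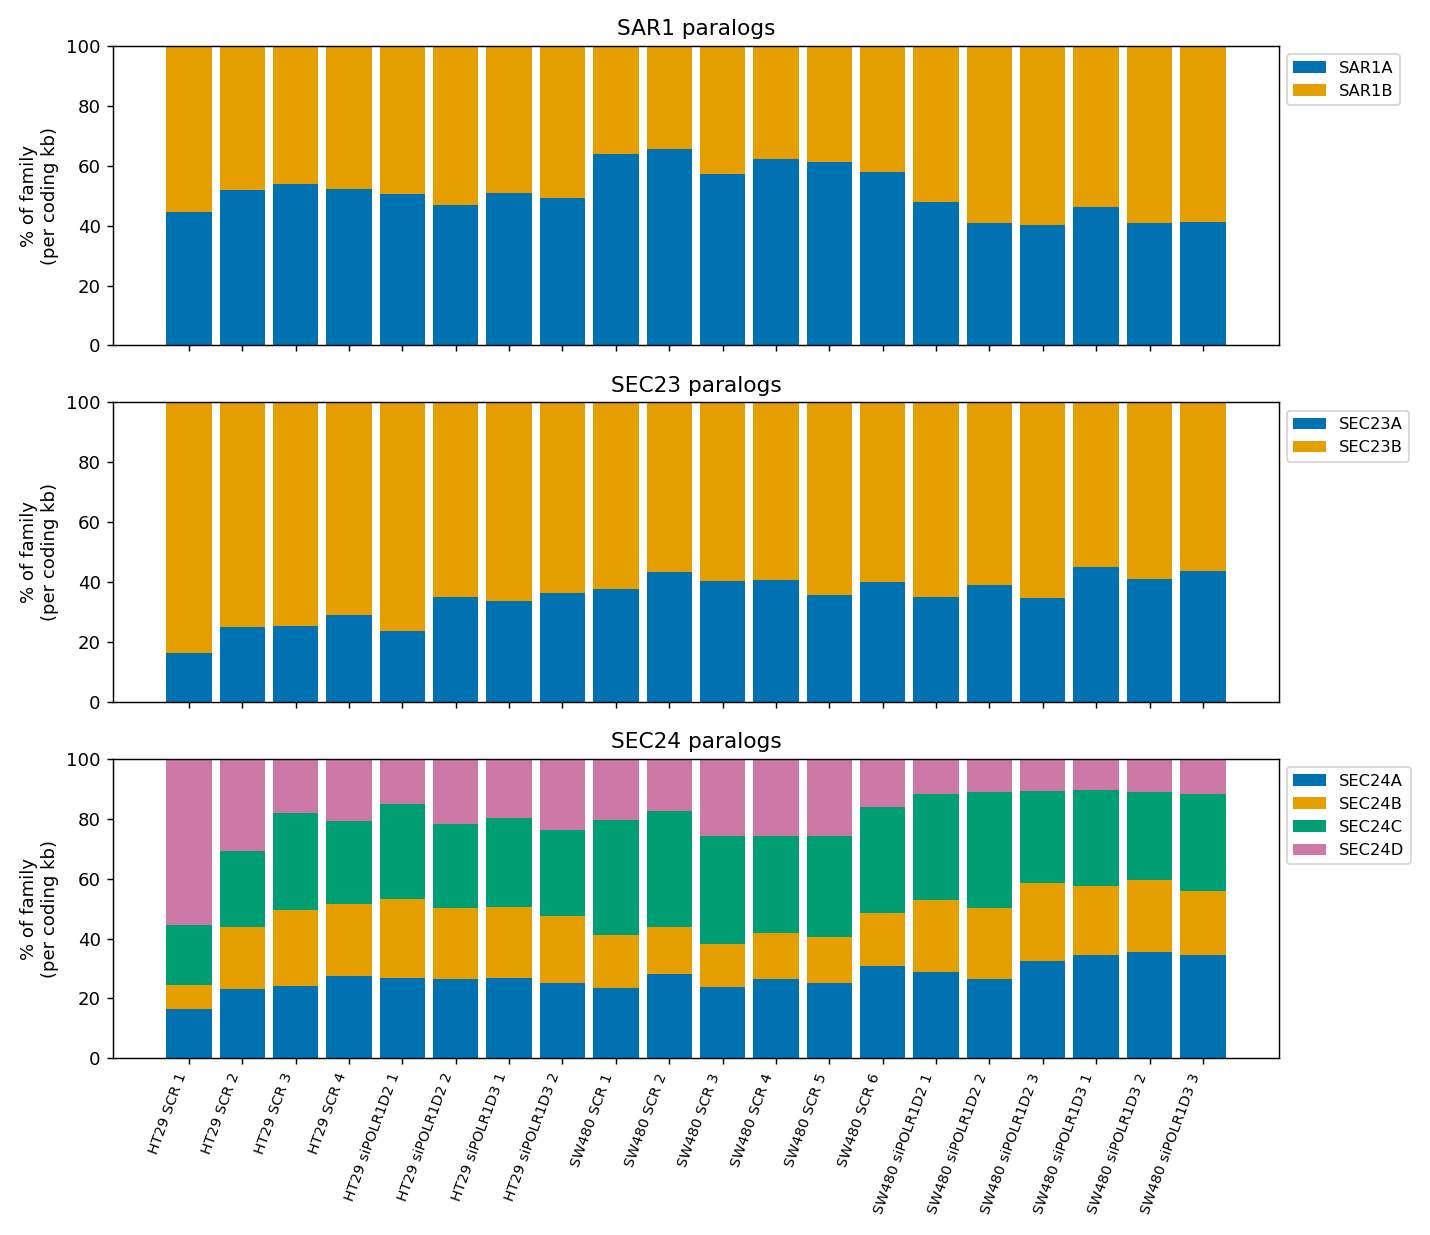
Share of each SAR1, SEC23 and SEC24 gene in its family, in percent of the family normalized read count per coding kilobase, for every library by line and group. In SW480 the SAR1B and SEC24B shares are larger and the SEC24D share smaller in all 6 silenced libraries than in any SCR library.

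SEC13 and SEC31A build the outer cage, and SEC13 is also a part of the nuclear pore. SEC13, at chr3:10293131-10321178 on the reverse strand, ran from 1279 to 1715 in SW480 SCR libraries and from 1210.2 to 1709.96 in silenced ones, and SEC31A, at chr4:82818661-82901166 on the reverse strand, from 1695 to 2795 and 1954 to 2406. The groups overlapped for both, with log2 fold changes of -0.027 for SEC13 (SE 0.11, adjusted p = 0.912) and -0.035 for SEC31A (SE 0.12, adjusted p = 0.889); with upper quartile rescaling SEC13 came to 0.0079. In HT29, SEC13 ran from 1069.97 to 2448 in SCR and from 1107 to 1189.8 in silenced libraries, and SEC31A from 2638 to 6794 and 2539 to 2843. SCR 1 was the highest of the 8 for both; the log2 fold changes were -0.28 and -0.52 with it and -0.011 and -0.24 without it, and none was called. With replicate number as a block, SEC31A came to -1.01 and was called (adjusted p = 0.0250), but the numbers do not pair the libraries.

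Each siRNA was then set against the SCR libraries on its own. In SW480, siPOLR1D2 gave 1 coat gene that rose and 3 that fell, where 1185 of 15997 genes were called (7.41%, with 2.83% rising and 4.58% falling). siPOLR1D3 gave 1 that rose and 2 that fell, where 993 were called (6.21%, with 2.13% rising and 4.08% falling). SAR1B was chosen with these comparisons known, so nothing is read from the counts. SEC24B rose by 0.43 with siPOLR1D2 (adjusted p = 0.0216) and by 0.43 with siPOLR1D3 (adjusted p = 0.0255), higher in 3 of 3 libraries each. SEC24D fell by 1.14 (adjusted p = 0.00504) and by 1.04 (adjusted p = 0.0108), SEC23B by 0.43 (0.0245) and 0.44 (0.0255), and SEC23A by 0.63 (0.00428) with siPOLR1D2. SEC23A with siPOLR1D3 was at -0.23 and was not called (adjusted p = 0.205). All of these are on the log2 scale.

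With 3 libraries an arm, several of these calls turned on 1 library. With siPOLR1D2, the SEC24B call was lost without siPOLR1D2 1 and 3 (adjusted p = 0.0658 and 0.0929), and the SEC23B call without SCR 5 and siPOLR1D2 1, 2 and 3 (from 0.0523 to 0.0852). With siPOLR1D3, the SEC24B call was lost without siPOLR1D3 1, 2 and 3, each alone (from 0.0996 to 0.122), the SEC23B call without siPOLR1D3 1, 2 and 3 (from 0.0619 to 0.145), and the SEC24D call without siPOLR1D3 1 and 2 (0.0829 and 0.0568). SEC24D and SEC23A with siPOLR1D2 were called with each of the 12 libraries left out in turn. In HT29, 0 of the 9 coat genes and 0 of 14024 genes (0%) were called by limma with either siRNA, with 621 genes at an unadjusted p under 0.05 with siPOLR1D2 and 1118 with siPOLR1D3, and 0 of the 9 with either. POLR1D itself was at -0.54 and -0.89 in HT29, and at -0.99 and -1.09 in SW480.

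Between the siRNAs in SW480, siPOLR1D3 against siPOLR1D2, 0 of the 9 coat genes were called, where 470 of 15997 genes were (2.94%, with 1.46% higher and 1.48% lower, limma), and 3 of the 9 were at an unadjusted p under 0.05. The 3 were SEC23A (0.41, adjusted p = 0.0838), SEC24A (0.37, adjusted p = 0.144) and SEC13 (-0.31, adjusted p = 0.182); they are named after their values were seen. siPOLR1D2 1 and 2 are in the other subset of SW480 libraries from all siPOLR1D3 libraries, so the siRNA and the subset cannot be told apart in most of this comparison. In HT29, 0 of the 9 and 0 of 14024 genes were called (0%, limma), with 0 and 237 at an unadjusted p under 0.05.

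**Figure D4:**
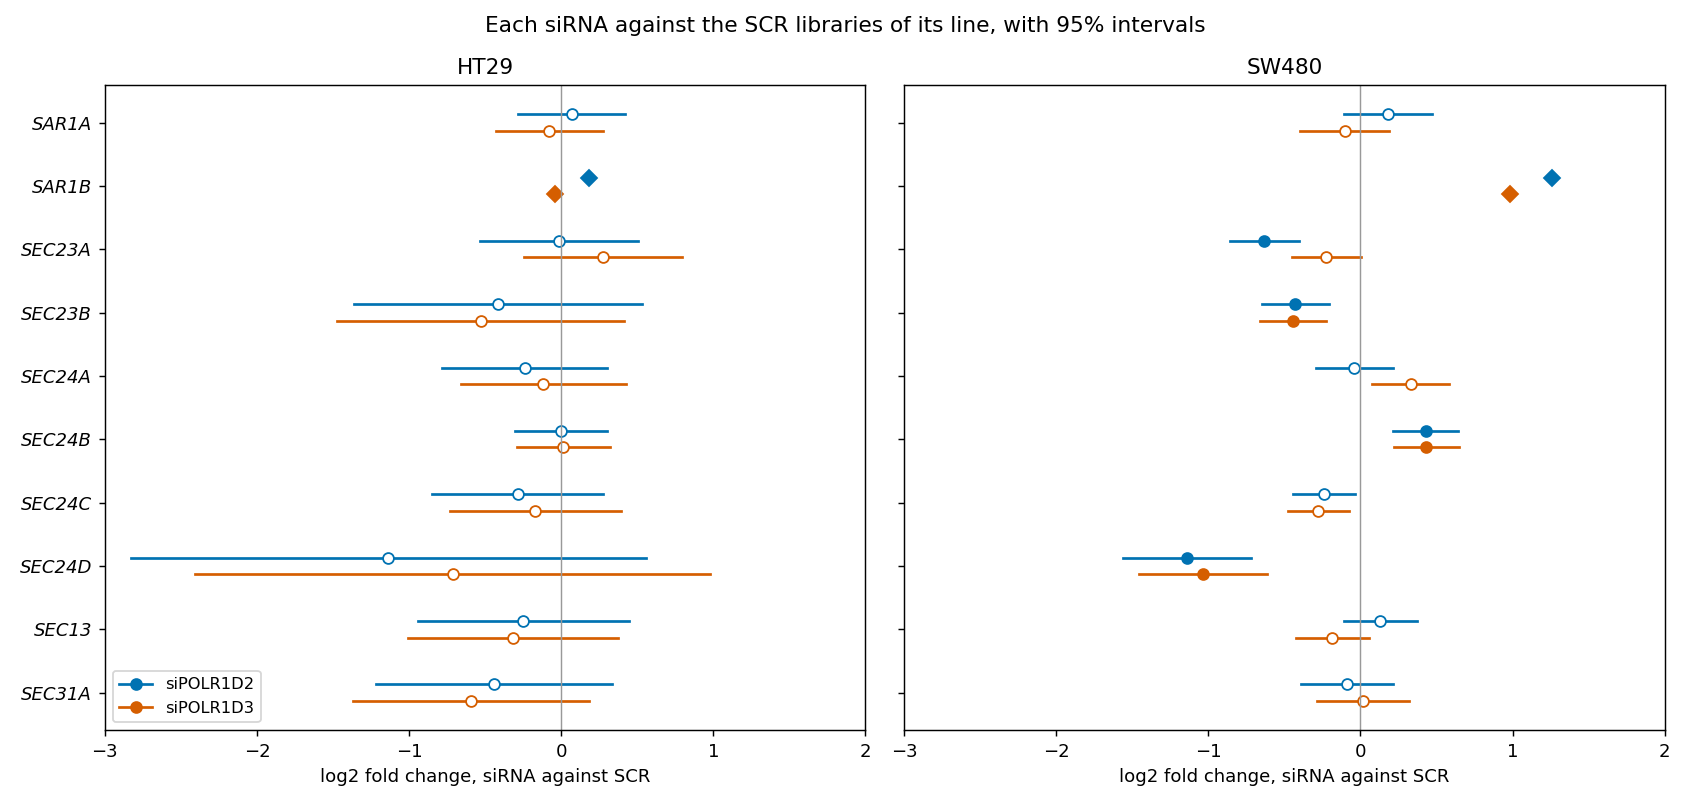
Log2 fold change against SCR of the 10 genes for siPOLR1D2 and siPOLR1D3 in each line, with 95% intervals for the tested genes. SAR1B has no interval since it was not tested, and filled circles mark an adjusted p under 0.05. In SW480 SEC24B lies at 0.43 with both siRNAs, and SEC24D at -1.14 and -1.04.

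The order of levels among the genes was read per coding kilobase of the longest coding transcript, in SCR libraries. In SW480 the medians of the normalized read count per coding kilobase were 2585 for SEC23B, 1875 for SAR1A, 1653 for SEC23A, 1354 for SEC13 and 1245 for SAR1B. Below them came SEC24C (689), SEC31A (619), SEC24A (521), SEC24D (432) and SEC24B (306). So SEC24B, which rose, was the least abundant coat gene of SW480 on this scale, but it ranked 7 of the 10 per kilobase of whole transcript; SEC23B was the most abundant on both. Neighbours in this order overlapped in their ranges over the SCR libraries, except SEC23A (1556 to 1955) over SEC13 (1159 to 1553) and SAR1B (1087 to 1389) over SEC24C (620.2 to 721). SAR1A (1781 to 2401) lay wholly above SAR1B.

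In HT29 the medians per coding kilobase began with SEC23B (2749.8), SAR1A (2157) and SAR1B (1987), followed by SEC13 (1081), SEC31A (949), SEC23A (947), SEC24C (629), SEC24D (604), SEC24A (579) and SEC24B (498). All neighbours in this order overlapped, SAR1A (1819 to 2393) and SAR1B (1682 to 2745) among them. Some of these overlaps rest on SCR 1: without it, SEC23A (median 926) came before SEC31A (752) and SEC24D (432) came last. SAR1B (1682 to 2045) then lay wholly above SEC13 (969 to 1089), SEC13 above SEC23A (886 to 967), and SEC31A (703 to 1146) and SEC23A above SEC24C (578 to 641), while the other neighbours still overlapped. The ranks depend on the length used: SEC24B was 10 of the 10 here and 5 per kilobase of whole transcript. Both SAR1 genes code for 594 bases, but their transcripts have 5981 and 6682 bases, and per kilobase of whole transcript they ranked 9 and 10 of the 10 in both lines. The libraries were made by exome capture, so neither length is exact.

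SAR1B and SEC24A are neighbours on chromosome 5 and are read in opposite directions; their GENCODE 29 spans overlap by 483 bases at their 5′ ends. They share 357 stretches of 31 bases, of 11153 in SAR1B and 7171 in SEC24A transcripts, so reads from there could be given to either gene, and whether the authors used read strand is not stated in the labels. SAR1A and SAR1B share 5 such stretches. Among the members, SEC24C had the highest share held by another gene, 39.8%, all of it in AC022400.8, which overlaps it on the other strand.

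Promoter sequence is shown for SAR1B and SEC24A, since they are head to head neighbours, and for SEC23A, the other member with the motif searched. RefSeq windows were found for 9 of the 10 members, all but SEC24D (14 windows, GRCh38.p14). The letters TGACGTGG, known from an element that the stress factors ATF6 and XBP1 bind, were searched on both strands and stood in 2 of the 14, in SEC24A and SEC23A, and in 0.729% of the 35116 windows of all genes. The longer element ERSE and its variant ERSE-II stood in 0 of the 14, and in 0.0769% and 0.0541% of all windows; each ends in CCACG, which the other strand of TGACGTGG also holds, so a match of the one can overlap the other. Below, 250 bases before and 10 after the RefSeq start are printed 5′ to 3′ on the strand of the gene, with TGACGTGG in capitals. The stretches are chr5:134632819-134633078 on the reverse strand, chr5:134648535-134648794 on the forward strand, where the motif begins 179 bases before the start, and chr14:39103226-39103485 on the reverse strand, where it begins 4 bases before it. A match is a run of letters and says nothing about binding in these cells. The RefSeq starts of SAR1B and SEC24A are 15957 bases apart, unlike the overlapping GENCODE spans.
SAR1B: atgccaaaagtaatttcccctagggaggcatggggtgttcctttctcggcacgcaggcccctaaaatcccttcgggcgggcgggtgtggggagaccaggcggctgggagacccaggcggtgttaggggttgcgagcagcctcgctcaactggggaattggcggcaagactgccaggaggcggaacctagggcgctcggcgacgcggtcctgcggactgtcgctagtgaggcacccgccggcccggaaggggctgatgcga
SEC24A: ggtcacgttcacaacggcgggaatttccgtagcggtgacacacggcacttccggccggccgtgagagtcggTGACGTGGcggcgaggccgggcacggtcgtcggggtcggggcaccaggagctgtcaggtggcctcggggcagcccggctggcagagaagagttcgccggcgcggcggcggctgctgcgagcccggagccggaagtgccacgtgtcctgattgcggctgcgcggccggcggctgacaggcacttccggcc
SEC23A: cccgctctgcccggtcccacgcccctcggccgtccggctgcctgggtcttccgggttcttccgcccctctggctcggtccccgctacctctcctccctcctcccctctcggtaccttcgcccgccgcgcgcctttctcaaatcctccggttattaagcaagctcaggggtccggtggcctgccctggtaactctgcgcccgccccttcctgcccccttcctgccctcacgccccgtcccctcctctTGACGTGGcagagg

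Other genes of the route between endoplasmic reticulum and Golgi were read as lists in SW480, beside the same background of 2.45% rising and 4.29% falling and a median of 0.013 over all genes tested. Of 16 genes that build or regulate the coat, 13 were tested, 1 rose and 1 fell, with a median log2 fold change of 0.028. PDCD6, a calcium sensor that binds SEC31A, rose (1761 to 2319 in SCR and 2273 to 3747 in silenced libraries, log2 fold change 0.63, adjusted p = 0.0137). KLHL12, the ubiquitin ligase adaptor for SEC31 that also works with PDCD6, fell (761 to 1023 and 581 to 778, log2 fold change -0.43, adjusted p = 0.0354). PDCD6 was called with each of the 12 libraries left out in turn, and the KLHL12 call was lost without SCR 2, 3 and 6, siPOLR1D2 3 and siPOLR1D3 1, 2 and 3, each alone (adjusted p = 0.0580 to 0.0785) and with no filter on low values (0.0577).

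Of 24 cargo receptors and sorting factors, 22 were tested, 1 rose and 0 fell (limma; median 0.10). The 1 was SURF4, a receptor for soluble cargo that includes lipoproteins (1233 to 1771 in SCR and 1794 to 2111 in silenced libraries, log2 fold change 0.37, adjusted p = 0.0486). Its call was lost without SCR 2, 3, 4 and 6, siPOLR1D2 1, 2 and 3 and siPOLR1D3 1, 2 and 3, each alone (adjusted p = 0.0581 to 0.102), and with no filter on low values (0.0849). Of the 17 genes of COPI, the coat of the return path, 0 rose and 2 fell (median -0.21). They were ARCN1, the delta subunit of that coat (4554 to 5133 and 2983 to 4048, log2 fold change -0.40, adjusted p = 0.0191), and GBF1, the exchange factor that loads its GTPase (3649 to 4057 and 2529.5 to 3209, -0.43, adjusted p = 0.0127), and both were called with each of the 12 libraries left out.

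Of 20 tethers and SNAREs, 0 rose and 3 fell (median -0.13). USO1, a tether that catches COPII vesicles, ran from 2939.8 to 3478 in SCR and from 2165 to 2968 in silenced libraries (-0.40, adjusted p = 0.0230). SCFD1, which guides SNARE assembly, ran from 2170.03 to 3603 and 1595 to 2156 (-0.51, adjusted p = 0.0270), and the Golgi stacking protein GORASP2 from 3749.6 to 4238 and 2902 to 3526 (-0.30, adjusted p = 0.0337). Each of these calls was lost when some libraries were left out alone: USO1 without SCR 3 and 4, siPOLR1D2 3 and siPOLR1D3 1 (0.0512 to 0.0536), SCFD1 without SCR 2, 4 and 6, siPOLR1D2 3 and siPOLR1D3 1 and 3 (0.0503 to 0.0617) and GORASP2 without SCR 2, 3, 4, 5 and 6, siPOLR1D2 3 and siPOLR1D3 1, 2 and 3 (0.0552 to 0.0735), the brackets holding the adjusted p. The GORASP2 call was also lost with no filter on low values (adjusted p = 0.0746) and with upper quartile rescaling (0.0506).

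Of 10 transcription factors of secretory genes and the proteases that release them, 9 were tested, 0 rose and 3 fell (median -0.15). XBP1, a factor of the unfolded protein response, was 649 to 1352 in SCR and 445 to 692 in silenced libraries (-0.88 on the log2 scale, adjusted p = 0.0111). CREB3L2, known to raise SEC23A in cartilage, was 171 to 452 and 91.2 to 158 (-1.28, adjusted p = 0.0135), and ATF6 was 1846 to 3815 and 1056 to 2167 (-0.69, adjusted p = 0.0481). XBP1 and CREB3L2 were called with each of the 12 libraries left out; the ATF6 call was lost without SCR 2, 3, 4, 5 and 6, siPOLR1D2 3 and siPOLR1D3 1, 2 and 3, each alone (adjusted p = 0.0651 to 0.102), with no filter on low values and with upper quartile rescaling, its range over the alternatives being 0.00628 to 0.680.

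Genes within 500 kilobases of SAR1B were read to see whether its neighbourhood moved with it. Of 16, SEC24A among them, 15 were tested in SW480, 2 rose and 0 fell (limma; median 0.064). CATSPER3, a sperm calcium channel gene 318635 bases away, was at 65.7 to 97.1 in SCR and 113 to 208 in silenced libraries (0.90, adjusted p = 0.0150), called with each of the 12 libraries left out. The transcription factor PITX1, 378464 bases away, was at 775 to 1081 and 1123 to 1975 (0.58, adjusted p = 0.0323), and its call was lost without SCR 2, 3, 4 and 6, siPOLR1D2 1 and 3 and siPOLR1D3 1 and 3, each alone (0.0555 to 0.0730).

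All 13 called genes of these lists lay on the same side of 0 within both subsets of SW480 libraries. In SCR 1 to 3 with siPOLR1D2 1 and 2, where no gene passed, their adjusted p ran from 0.327 to 0.718, and in the other 7 libraries KLHL12 (0.0638) and PITX1 (0.0579) were the only ones of the 13 not called. Some values were also smaller in the first subset, with log2 fold changes there of 0.32 for PDCD6, -0.41 for ATF6 and -0.18 for GORASP2, while others such as GBF1 (-0.56) were as large as over all libraries.

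In HT29, limma called 0 of the 97 genes of these lists that were tested, with 5 at an unadjusted p under 0.05, and in the difference between the lines 0 of 95, with 6. The HT29 medians on the log2 scale were -0.037 for coat assembly, -0.25 for cargo receptors, -0.22 for COPI, -0.20 for tethers and SNAREs, -0.49 for transcription factors and -0.012 for the neighbours of SAR1B. Without HT29 SCR 1 they were -0.017, -0.0085, -0.025, -0.038, -0.20 and 0.014, nearer to 0 in all but the last, whose sign turned. For 3 of the 13 genes called in SW480 the HT29 groups did not overlap, each on the same side as in SW480, though none of the 3 was called; over all genes tested in HT29 6.88% did not overlap, with 2.72% wholly above and 4.16% wholly below. XBP1 ran from 1168 to 2848 in SCR and from 878 to 1026 in silenced HT29 libraries (-0.89 on the log2 scale, adjusted p = 0.355, limma). ATF6 ran from 1629.8 to 3221 and 1224 to 1438 (-0.61, adjusted p = 0.408), and CATSPER3 from 20.9 to 38.3 and 41.4 to 65.7 (0.88, adjusted p = 0.399). A missing call in HT29 therefore does not show that the lines differ. With replicate number as a block, though the numbers do not pair the libraries, limma called genes of these lists in HT29: 3 of the transcription factors and proteases, 2 of the tethers and SNAREs, 1 cargo receptor and 1 gene of coat assembly fell, and 1 neighbour of SAR1B rose, where 735 genes were called in all.

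**Figure D5:**
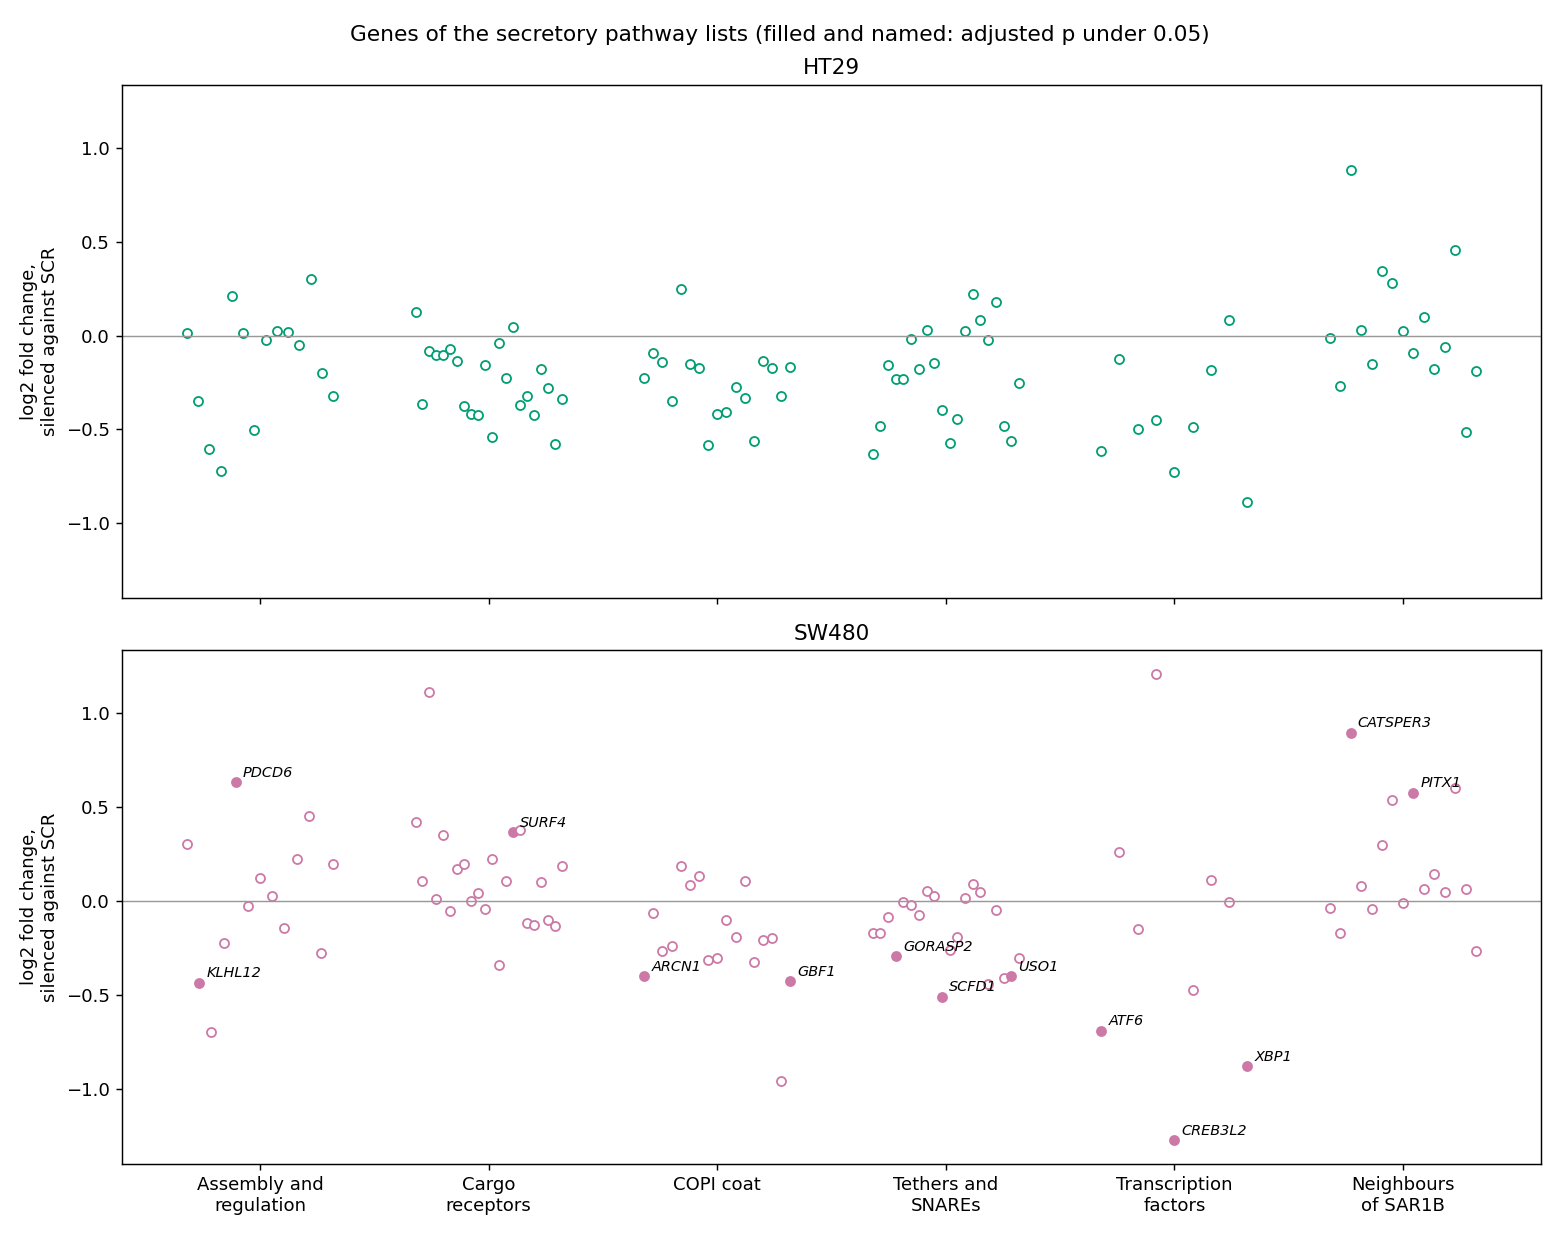
Log2 fold change, silenced minus SCR, of every tested gene of the pathway lists under the axis, in HT29 and SW480 (points; filled, adjusted p under 0.05). In SW480 the called genes are PDCD6, SURF4, CATSPER3 and PITX1 above 0 and 9 genes below it, and in HT29 limma called none.

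The genes whose pattern was most like that of SAR1B were taken by Pearson correlation over the 20 libraries, each value centred on the mean of its line, among 12715 genes. They were LSM14A (r = 0.923), a protein of messenger RNA storage and silencing, TOP1MT (r = 0.921), the mitochondrial topoisomerase, ANKRD46 (r = 0.915), LAMTOR2 (r = 0.913), of the complex that holds mTORC1 at the lysosome, and GNB1 (r = 0.905), a G protein beta subunit. The 20 points share 2 lines, their SCR libraries and the silencing itself, so these are descriptions with no test. Within SW480 (12 libraries) r was 0.963 for LSM14A and 0.905 for GNB1, and within HT29 (8 libraries) 0.186 and 0.925. In SW480 the log2 fold changes of those after LSM14A were 1.31, 0.76, 0.67 and 0.66, which the choice by likeness to SAR1B favours. Among the coat genes, SEC24B came highest (r = 0.758, rank 98 of 12715) and SEC23A lowest (r = -0.584, rank 12070), while SAR1A had r = 0.239 and SEC24A r = 0.222.

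LSM14A ran from 2220.2 to 2929.8 in SW480 SCR libraries and from 4093 to 6303 in silenced ones, and from 4839.8 to 5411 and 5118 to 6016 in HT29. The log2 fold change was 1.03 in SW480 and 0.14 in HT29, and the SW480 value minus the HT29 value was 0.89. LSM14A was selected for likeness to SAR1B in the same libraries, so its values in either line and between the lines are descriptions with no test and no separate support for the SAR1B pattern.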

How the data were processed

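RNA was measured by sequencing in 20 libraries of HT29 and SW480 cells. The deposited values are the unit signal: read counts per gene that the authors made from exome-capture, paired-end reads with kallisto 0.44.0 on hg38 and normalized with DESeq2 1.24.0, after read checks with FastQC 0.11.5; the transcript annotation is not stated in the labels. Each file has 40117 entries; 15 with a date in place of a gene name were dropped and entries with the same name were summed, which left 36334 names. The members and lists were chosen with earlier results of these data known. log2(value + 1) was fitted with limma 3.58.1 (R 4.3.3) with a mean-variance trend, for silenced against SCR in each line, for each siRNA against SCR and the siRNAs against each other in a fit of 3 groups a line, and for the difference between the lines over all 20 libraries. Genes with at least 10 in as many libraries as the smaller group were tested, with Benjamini-Hochberg adjustment over all of them. Ratios of related genes were tested with an exact permutation test, 2-sided, in SciPy 1.17.1 (Python 3.11.15), and figures were drawn with Matplotlib 3.10.9. Positions and lengths are from GENCODE 29, promoter sequence from RefSeq GRCh38.p14. Named are the 10 members, POLR1D, genes of each list at an adjusted p under 0.05 (at most 6 a list) and the 5 genes most correlated with SAR1B; KRT20 comes from the marker list. Alternatives were pseudocounts of 0.1 and 5, no filter, upper quartile rescaling, replicate number as a block, each library left out, and a subset of SW480 libraries taken alone or as a covariate.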

Additional observations from a re-analysis of the deposited data

Results flagged for a closer look

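For 9 of 44 groups of libraries, that is a coat gene or POLR1D in the SCR or the silenced libraries of a line, the gap of 1 library to the nearest other was large for the range of its group; chance gives about 1 in 20 groups, and the 44 are not independent, since the genes share libraries. HT29 SCR 1 stood out for 5 genes: SEC23A (3281, against 2034 to 2219 in SCR 2 to 4), SEC23B (16972, against 5178 to 6638), SEC24C (3618, against 1896 to 2104), SEC24D (9321, against 1070.01 to 2404) and SEC13 (2448, against 1069.97 to 1202). HT29 siPOLR1D2 1 was low for SEC23A (1932, against 2802 to 2922 in the other silenced libraries) and high for SAR1A (1463, against 1192 to 1197). In SW480, siPOLR1D2 1 was high for SAR1A (1623, against 1046 to 1204) and SCR 4 for SEC23A (4487, against 3572 to 3895). Why these libraries stood out was not tested.

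LSM14A, the gene most like SAR1B in pattern, differed in response between the lines by 0.89 on the log2 scale, SW480 minus HT29. It was noted because it was 1 of 5 genes that limma called for this difference, a call lost without 13 of the 20 libraries, each left out alone, with no filter on low values and with replicate number as a block. It was taken for likeness to SAR1B in the same 20 libraries, which favours such a difference, so the value is a description with no test.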

How the results depend on the processing

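Reads were not recovered from the deposited values, so a count model was not run. The spread behind every p rests on 2 to 6 libraries an arm, except where an alternative leaves 1 in an arm. That library is then assumed to vary like the others. This holds where a library is left out of an arm of 2. It also holds for siPOLR1D2 within SCR 4 to 6, siPOLR1D2 3 and siPOLR1D3 1 to 3. SEC24B, SEC23B and SEC24D in SW480 kept their direction and their call with pseudocounts of 0.1 and 5, with no filter on low values, with upper quartile rescaling, with the library subset as a covariate and with each library left out, and lost the call with the replicate block and within SCR 1 to 3 and siPOLR1D2 1 and 2. siPOLR1D3 has no library in that subset, so that comparison could not be fitted there. Each change given below is a value, and the cause was not tested, except that fewer libraries leave a wider spread.

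With replicate number as a block, limma called 735 genes in HT29, 1 of them a coat gene that fell, SEC31A (log2 fold change -1.01, adjusted p = 0.0250), and 0 of 15010 in SW480 (3002 at an unadjusted p under 0.05), so that 0 coat genes rose and 0 fell. For the difference between the lines it called 97 of 12716 genes and 1 coat gene rose. That gene was neither SEC24B nor SEC23A. Over the alternatives other than leaving out a library, their adjusted p from limma ran from 0.161 to 0.405 and from 0.293 to 0.582. With siPOLR1D2, limma with this block called 12 genes in HT29 and 13 in SW480. There, 0 coat genes rose and 0 fell (2752 genes at an unadjusted p under 0.05). With siPOLR1D3 it called 23 in HT29, and in SW480 0 coat genes rose and 1 fell. In that SW480 comparison 759 to 3050 genes were called over the alternatives, this block among them, other than leaving out a library. Between the siRNAs in SW480 the block called 36. The numbers do not pair libraries: residuals of libraries with the same number had a mean r of -0.037 in HT29 and -0.015 in SW480, against 0.016 and -0.00109 for other pairs. The block turned the log2 fold change of SAR1A to 0.082 and of SEC23A to -0.059 in HT29, and of SAR1A to -0.079 and of SEC31A to 0.14 in SW480. For single siRNAs it turned SEC24B with siPOLR1D2 (0.033) and SAR1A with siPOLR1D3 (0.0087) in HT29, and SEC24A (0.046) and SEC31A (0.088) with siPOLR1D2 in SW480.

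Within SCR 1 to 3 and siPOLR1D2 1 and 2, limma called 0 of 15100 genes (1520 at an unadjusted p under 0.05), with 0 coat genes that rose and 0 that fell, for silencing as a whole and for siPOLR1D2, which are the same comparison there. The signs of SEC24A (-0.074) and SEC31A (0.023) turned for silencing as a whole, and those of SEC13 (-0.0087) and SEC31A (0.023) for siPOLR1D2. Within the other 7 libraries, 1937 genes were called, 3180 with siPOLR1D2 and 3050 with siPOLR1D3. There SEC13 came to 0.027, SEC24A with siPOLR1D2 to 0.11, and SAR1A and SEC31A with siPOLR1D3 to 0.013 and -0.16, each with its sign turned. With the subset as a covariate, 1993 genes were called in SW480 and 28 between the lines, and SEC13 came to 0.012. With no filter on low values, 666 genes were called in SW480, and 289 between the siRNAs there. Upper quartile rescaling turned the sign of SAR1A in HT29 (0.026), of SEC13 in SW480 (0.0079), and of SEC23A (0.016) and SEC24B (0.029) with siPOLR1D2 in HT29.

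Leaving out 1 library at a time, the genes called ran from 0 to 1 in HT29, 534 to 1284 in SW480 and 2 to 17 between the lines, and in SW480 from 424 to 1795 with siPOLR1D2, 115 to 1345 with siPOLR1D3 and 39 to 743 between the siRNAs. Coat genes that rose ran from 0 to 1 with siPOLR1D2 and from 0 to 1 with siPOLR1D3, and those that fell from 0 to 2 with siPOLR1D3. The log2 ratio difference of SEC24A to SEC24B ran from -0.32 to 0.060 in HT29 and -0.35 to -0.23 in SW480 (adjusted p from 0.0130 to 0.208, exact permutation test, under 0.05 only without SCR 1), and that of SEC23A to SEC23B in SW480 from -0.058 to 0.067. Signs of uncalled log2 fold changes that turned gave, in HT29, -0.078 to 0.054 for SAR1A, -0.31 to 0.0057 for SEC24A and -0.054 to 0.043 for SEC24B, and in SW480, -0.048 to 0.094 for SAR1A, -0.071 to 0.028 for SEC13 and -0.11 to 0.031 for SEC31A. With siPOLR1D2 in HT29, SAR1A ran from -0.077 to 0.22, SEC13 from -0.37 to 0.024, SEC23A from -0.29 to 0.26 and SEC24B from -0.063 to 0.034, and in SW480 SEC24A from -0.16 to 0.066. With siPOLR1D3 in HT29, SEC24A ran from -0.25 to 0.067, SEC24B from -0.070 to 0.10 and SEC24C from -0.27 to 0.042, and in SW480 SEC31A from -0.060 to 0.084. Of 2447 values of single genes and lists under all alternatives, which leave out the ratios of related genes and the counts of coat genes and of all genes, 2164 kept their direction and their side of the threshold or moved within the spread, 163 lost a call, 3 gained one, 65 moved further and 52 turned their sign.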
